A study of Mus musculus with 2 samples.

Results

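Mir143 and Mir145a are neighbouring microRNA (miRNA) genes known from smooth muscle. They were picked by symbol, as the genes of the deposited count files whose Ensembl identifiers carry these names, and make up 2 of the 1973 counted miRNA genes. The counts come from small RNA sequencing of whole hearts of B6NCrl mouse embryos at day 15.5, with male and female embryos pooled and no treatment or genetic change named in the labels. There is 1 group with 2 biological replicates. Replicate 1 pooled the hearts of 78 embryos and replicate 2 those of 62, so the spread between them is a spread between pools. Totals on the strand of a miRNA gene were 3439539 counts in replicate 1 and 5833156 in replicate 2. Levels are given as counts per 1000000 of these totals (CPM), ± is the SD over both libraries (n = 2), and a gene was called detected with at least 10 counts in each library, which 327 genes reached. With a single group, the data give the level of the pair in the heart of this stage, the balance between its members and the difference between pools.

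miRNAs are processed from hairpin precursors and lower the output of mRNAs that match their seed, the bases 2 to 8 of the mature strand. In mice, Mir143 and Mir145a are made from a common primary transcript that depends on serum response factor and its partner myocardin. Mir145a represses Klf4, a factor that holds back the contractile programme, and Mir143 represses Elk1, a competitor of myocardin, so that the pair favours the contractile state of smooth muscle cells. Fibroblasts also make both miRNAs. In the embryonic heart, smooth muscle lies mainly in the outflow vessels and the coronary wall. Only miRNA genes were counted, so the usual protein markers of smooth muscle were not measured, and the cells behind the counts were not tested. In whole hearts, more cells of a type and more RNA per cell cannot be told apart.

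The mature strands below, from RefSeq on GRCm38.p6, belong to the miRNAs that the level of Mir143 is read against, namely its nearest neighbours in level and the endothelial and cardiomyocyte markers. The seed is in capitals. The counts stand for whole hairpins, so that these strands were not counted separately from the opposite arm. The cardiomyocyte strands of Mir208a and Mir208b carry the same seed. No mature sequence of Mir143 or Mir145a is used here.
miR-335-5p: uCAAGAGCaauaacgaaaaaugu
miR-322-5p: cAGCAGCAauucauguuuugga
miR-126a-3p: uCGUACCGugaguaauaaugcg
miR-208a-3p: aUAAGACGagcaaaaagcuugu
miR-208b-3p: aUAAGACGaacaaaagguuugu

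Among these comparators, Mir335 lies in the imprinted gene Mest, Mir322 has the seed of the Mir15 and Mir16 family, Mir126a is the miRNA of endothelial cells, and Mir208a and Mir208b come from introns of the cardiac myosin genes Myh6 and Myh7.

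Mir143 and Mir145a lie next to each other on the minus strand, between long non-coding RNA genes of the heart. Mir143 (counted as ENSMUSG00000065445.2) spans positions 61649196 to 61649258 of chromosome 18 on GRCm38 (mm10), and Mir145a (counted as ENSMUSG00000065592.1) positions 61647825 to 61647894, in the GENCODE M21 annotation. The M21 entries carry later versions of both identifiers, so the intervals that were counted may differ. Mir143 is the upstream gene, and 1301 bases separate the hairpins. Neither overlaps another annotated gene. Carmn, a long non-coding RNA of smooth muscle and heart, is annotated on the same strand and ends 366 bases upstream of Mir143. Bvht, a long non-coding RNA described in the commitment of mouse cells to the heart, lies on the opposite strand and ends 352 bases from Mir145a. Transcripts of Carmn and Bvht were not measured.

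**Figure D1:**
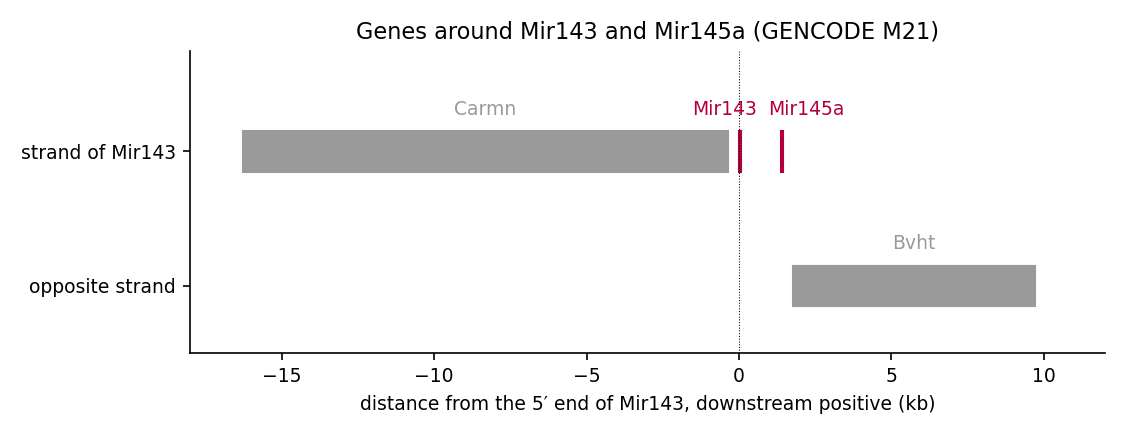
Annotated genes around Mir143 and Mir145a, by strand, with the distance from the 5′ end of Mir143 in kb (the outlines of the 2 hairpins are drawn wider than scale). Carmn ends 366 bases upstream of Mir143 on its strand, and Bvht reaches to 352 bases from Mir145a on the other strand.

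Reads of the pair came from the annotated strand alone. On the opposite strand, Mir143 had 0 counts and Mir145a had 0 counts in each replicate. For Mir143 this allows a share of the reads of up to 0.00106% in replicate 1 and 0.000582% in replicate 2, taking 3 counts as the limit that a count of 0 allows. For Mir145a the limits were 0.0786% and 0.0572%. This was the usual picture, since 296 of the 327 detected genes had 0 counts on the opposite strand in both libraries. Neither hairpin shares a stretch of 20 bases with another annotated miRNA hairpin, whereas 74 detected genes do, and any read with more than a single match was counted for no gene. The longest stretch that Mir143 shares with another counted hairpin is 11 bases. Mir145a shares 17 bases with Mir145b (ENSMUSG00000098366.1), a distant gene of similar name on the same chromosome. Mir145b itself had 0 counts in both libraries, for which the same limit is 0.872 CPM (replicate 1) and 0.514 CPM (replicate 2). Whether short reads of Mir145a were lost because they also matched Mir145b was not tested.

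Mir143 was the second most abundant counted miRNA gene of the embryonic heart in each pool. It had 283603 counts in replicate 1 and 515608 in replicate 2, or 82454 and 88393 CPM. The mean was 85423 ± 4199 CPM (n = 2). Its share of the counts was 8.25% in replicate 1, with an exact 95% interval of 8.22% to 8.27%. In replicate 2 the share was 8.84%, with an interval of 8.82% to 8.86%. The intervals do not overlap, and they cover counting error only. The mean level was 583-fold the median of the detected genes, 146 CPM. It exceeded the summed mean levels of the 275 least abundant of the 327 detected genes. Reads with multiple matches, 33.0% of reads in replicate 1 and 30.1% in replicate 2, were counted for no gene. The position and share of Mir143 therefore hold among counted reads only.

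Mir145a was detected far below its neighbour. It had 3817 counts in replicate 1 and 5242 in replicate 2, or 1110 and 899 CPM, with a mean of 1004 ± 149 CPM (n = 2). It stood at position 76 in replicate 1, at position 82 in replicate 2 and at position 79 by the mean. The exact 95% interval was 1075 to 1145.5 CPM for replicate 1 and 875 to 923 CPM for replicate 2, so that the pools again differed beyond counting error. Of the detected genes, 76.1% had a mean level no higher than that of Mir145a, which was 6.86-fold the median.

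**Figure D2:**
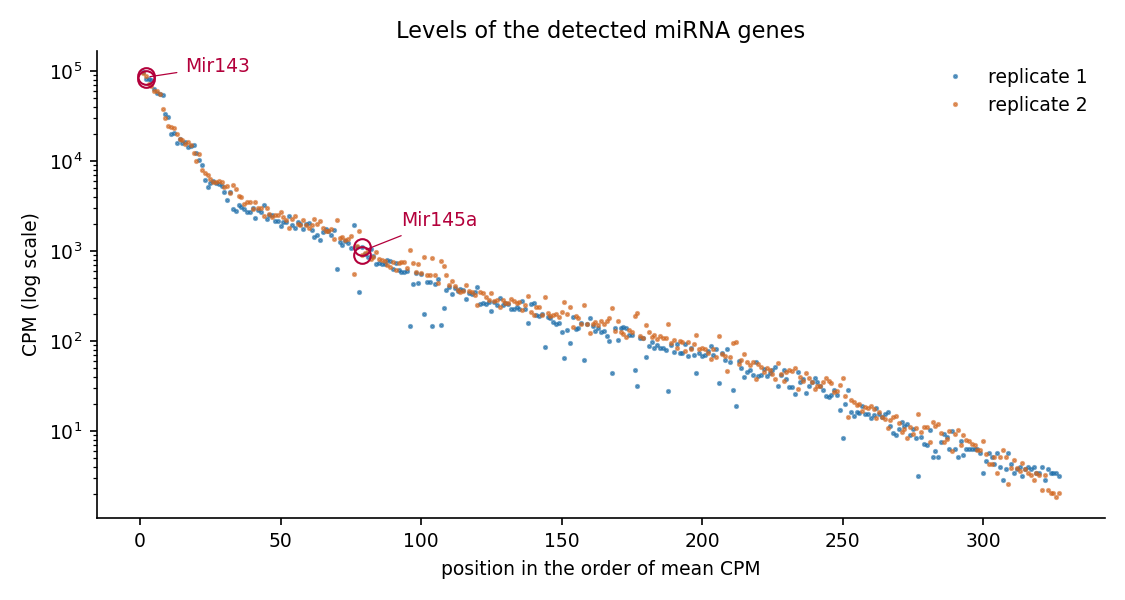
Level in CPM (log scale) of each of the 327 detected miRNA genes in replicate 1 (blue) and replicate 2 (orange), against the position in the order of mean CPM, with Mir143 and Mir145a circled. Mir143 stands at position 2 and Mir145a at position 79.

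Around Mir143 the order of levels was the same in both libraries. Mir335 lay above it, with 97894 CPM in replicate 1 and 96040 CPM in replicate 2. Mir322 lay below it, with 81074 and 72546 CPM, followed by Mir126a with 79217 and 67775 CPM. No other detected gene had a value inside the range of Mir143. The step to Mir322 was small in replicate 1, where Mir143 exceeded it by 0.02 on the log2 scale, against 0.29 in replicate 2. The difference of the means from Mir322, 8613 CPM, compares with SDs of 4199 CPM for Mir143 and 6030 CPM for Mir322. The mean of Mir143 less that of Mir335 was -11543.5 CPM, with an SD of 1311 CPM for Mir335.

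Around Mir145a the order was not resolved. The ranges of 9 detected genes overlapped that of Mir145a, among them the erythroid Mir451a (1975 and 564 CPM), the epithelial Mir200c (357 and 1672 CPM), Mir181a-1 (944 and 954 CPM, with a hairpin that holds 20 bases of another), Mir501 (866 and 1000.5 CPM) and Mir301 (1049 and 814 CPM). Mir872, with 1111 and 1151 CPM, lay 2 places above in the order of means. In replicate 1 its level could not be told from that of Mir145a, with 3823 counts for Mir872 and 3817 for Mir145a.

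The genes most like each member were found by the distance between log2 CPM values over the 2 libraries, which reads mostly level. Nearest to Mir143 were Mir335 (distance 0.28), Mir322 (0.29), Mir126a (0.39), Mir99a (0.69) and Mirlet7i (0.78). Nearest to Mir145a were Mir301 (0.16), Mir181a-1 (0.25), Mir148a (0.32), Mir872 (0.36) and Mir501 (0.39). Mir145a was not among the genes near Mir143, although the genes share a locus.

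The members were counted at very unequal levels. Mir143 exceeded Mir145a 74.3-fold in replicate 1, with an exact 95% interval of 72.0 to 76.7. The ratio was 98.4-fold in replicate 2, with an interval of 95.7 to 101.1. The log2 ratio of counts was 6.22 and 6.62, with a mean of 6.42 ± 0.29 (n = 2). Mir145a therefore gave 1.33% of the counts of the pair in replicate 1 and 1.01% in replicate 2. This is a ratio of sequenced counts, since the yield of each miRNA in library preparation was not measured, and it need not be a ratio of amounts in the tissue.

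Other neighbours were compared in the same way, as pairs of detected genes that follow each other on a strand with starts within 10 kb. Of 105 such pairs, the upstream gene had more counts in 52, as in the pair of Mir143 and Mir145a. The median size of the log2 ratio was 3.11, and 9 pairs had a more unequal ratio than Mir143 and Mir145a. Among the 86 pairs with at least 100 counts for each gene in each library, the ratio of Mir143 to Mir145a ranked 5 in size. The most unequal were Mir20a to Mir19b-1 (10.30), Mir99a to Mirlet7c-1 (8.94), Mir19b-1 to Mir92-1 (-8.47), Mir30e to Mir30c-1 (8.28) and Mir19a to Mir20a (-8.01). In 4 of these a hairpin shares a stretch of 20 bases with another, so that reads of that gene could be missing from its count. Among the 63 pairs without such a stretch, the ratio of Mir143 to Mir145a ranked 3 in size. Mir145a still shares 17 bases with Mir145b, and a loss of its short reads, which would raise the ratio, was not tested. The pairs next in the order of all 105 were Mir23a to Mir27a (6.45) above and Mir341 to Mir1188 (6.39) and Mir369 to Mir410 (6.35) below.

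**Figure D3:**
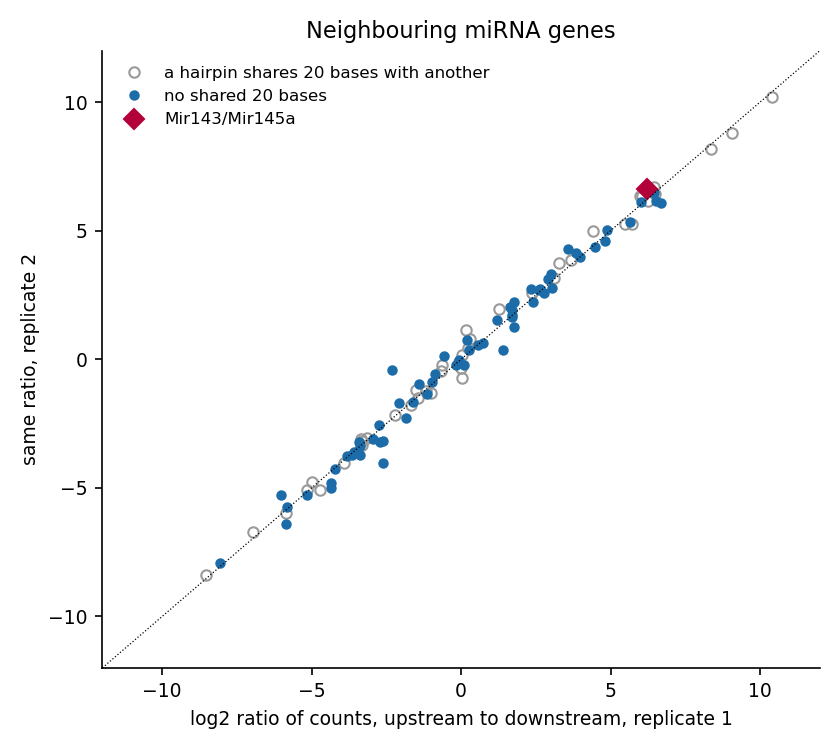
Log2 ratio of the counts of the upstream to the downstream gene for 105 neighbouring pairs, replicate 1 against replicate 2, with equality dotted. The pair of Mir143 and Mir145a (red diamond) lies at 6.22 and 6.62, near the upper end and slightly above the line.

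The balance between the members differed between the pools by more than counting error. The log2 ratio of Mir143 to Mir145a was lower in replicate 1 by 0.40 than in replicate 2. In a two-sided Fisher's exact test of the counts of both genes by library, with Benjamini-Hochberg adjustment over all 105 pairs, the adjusted p was 2.99e-37. Of all pairs 41.0% passed this test at 0.05, and 25 of the 105 pairs had a larger shift than this one. The median size of the shift was 0.22. The test sets the 2 libraries against counting noise and compares no conditions.

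The difference of each gene between the libraries was tested after TMM scaling (trimmed mean of M values) of the library sizes, with a two-sided exact conditional binomial test adjusted over 413 genes. Of these genes 46.5% passed, 21.8% with a higher level in replicate 1 and 24.7% with a higher level in replicate 2. Of the 182 genes with at least 1000 counts summed, both members among them, 142 passed. After this scaling both were called higher in replicate 1, a direction that for Mir143 reverses by total counts. Mir145a had a log2 ratio of replicate 1 to replicate 2 of 0.48 (adjusted p = 1.91e-52, exact test), and 26.6% of the detected genes had a larger one in size. Mir143 had a log2 ratio of 0.07 (adjusted p = 3.25e-101, exact test; -0.10 by total counts), and 83.2% of the detected genes had a larger one in size.

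The direction for Mir143 was set by the scaling. By total counts Mir143 was called higher in replicate 2, with a log2 ratio of -0.10, and with DESeq2 size factors it was called higher in replicate 1, with 0.11. Mir145a was higher in replicate 1 under each of these scalings, with 0.30 by total counts and 0.52 with DESeq2 size factors. The median log2 ratio of all tested genes was -0.21 by total counts and -0.04 after TMM scaling, and the called genes numbered 48 higher in replicate 1 and 155 higher in replicate 2 by total counts, against 90 and 102 after TMM scaling. Mir143 lay 0.11 and Mir145a 0.51 above that median, distances that no scaling can change, since a scaling moves all genes by the same amount. The log2 ratios of the detected genes had an SD of 0.63 after TMM scaling.

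**Figure D4:**
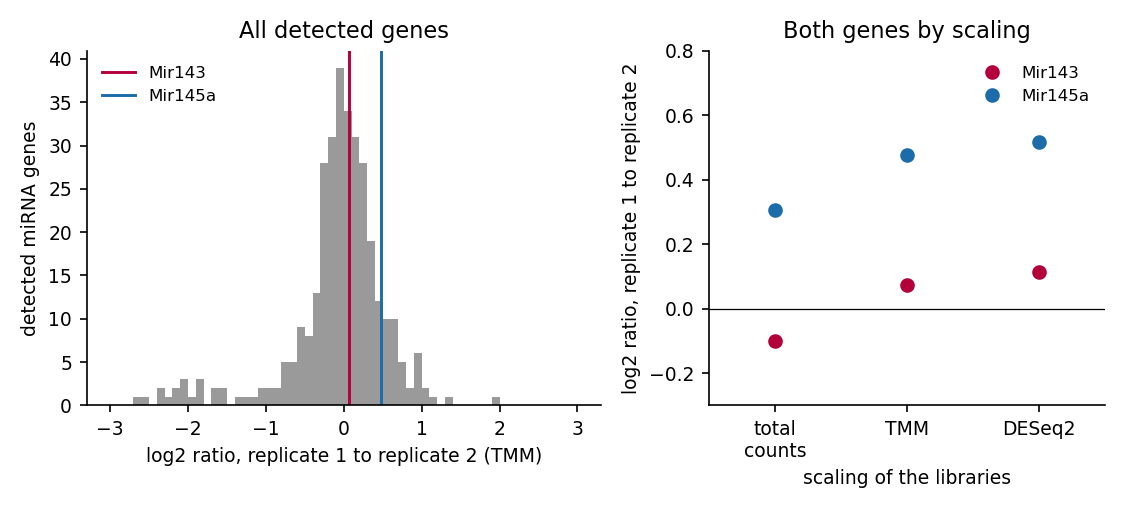
Left, histogram of the log2 ratio of replicate 1 to replicate 2 (TMM) over the 327 detected genes, with lines at 0.07 for Mir143 (below 0 by total counts) and 0.48 for Mir145a. Right, the same ratio for both genes under 3 scalings, where Mir143 lies at -0.10 by total counts and at 0.07 and 0.11 otherwise, while Mir145a stays above 0.

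The smooth muscle pair was then set beside the miRNAs of the other cell types of the heart. Mir143 and Mir145a together had 83564 CPM (replicate 1) and 89291 CPM (replicate 2), or 86427 ± 4050 CPM (SD, n = 2). The endothelial Mir126a was the closest, and the pair had 1.05-fold its level in replicate 1 and 1.32-fold in replicate 2. The summed cardiomyocyte list stood at 62461 and 45595 CPM, so that the pair exceeded it 1.34-fold and 1.96-fold. Of the 7 counted genes on that list, Mir1a-1, Mir133a-1 and Mir133a-2 had under 10 counts in each library. These 3 hairpins hold stretches of 20 bases found elsewhere too, and reads lost to multiple matches would lower the cardiomyocyte sum. Of the 5 tested cardiomyocyte genes, Mir208a, Mir208b and Mir499 were called higher in replicate 1, as was the endothelial Mir126a, against 21.8% of all 413 tested genes. These calls held by total counts, where 48 of the 413 genes were called higher in replicate 1, and with DESeq2 size factors. Calls in either direction were more common among abundant genes, with 142 of the 182 genes that had at least 1000 counts summed. Mir208a, Mir208b, Mir499 and Mir126a are among these 182, so nothing about cell types is read from their calls. Mir1a-2 was not analysed here.

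Gene by gene, Mir143 lay above each detected cardiomyocyte gene. Mir143 exceeded Mir208b 1.53-fold in replicate 1 and 2.34-fold in replicate 2, and Mir208a 13.8-fold and 15.2-fold. It exceeded Mir499, from an intron of Myh7b, 33.1-fold and 48.3-fold. Mir145a, by contrast, had 0.186 and 0.155 of the counts of Mir208a, and 0.445 and 0.491 of those of Mir499. Mir490, a muscle miRNA, had fewer counts than Mir145a, which exceeded it 9.42-fold and 7.12-fold.

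Of the other miRNAs described in the contractile state of vascular smooth muscle, 4 of 7 counted genes were detected. Mir22 had 9044 and 8024 CPM and Mir100 had 6184 and 7372 CPM. Mir195a, whose seed is that of Mir322, had 378 and 353 CPM, and Mir204 had 69.5 and 84.7 CPM. The other 3 are the Mir1a and Mir133a genes named above, and reads lost to multiple matches would lower the sum of this list. The pair exceeded the sum of this list 5.33-fold in replicate 1 and 5.64-fold in replicate 2, and Mir143 exceeded its leading member Mir22 9.12-fold and 11.0-fold. Of the 5 tested genes, 2 were called higher in replicate 1 (Mir22, and Mir195a, which lost its call by total counts), and 1 higher in replicate 2 (Mir100, joined by Mir204 by total counts). These 3 of 5 calls compare with 46.5% over all 413 tested genes, and with so few genes nothing is read from the difference. The median log2 ratio of replicate 1 to replicate 2 was 0.27, against -0.04 over all tested genes.

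The miRNAs described in the proliferative state of smooth muscle were counted at lower levels than Mir143 as well. All 9 counted genes of this list were detected, and they summed to 34617 CPM (replicate 1) and 34362 CPM (replicate 2). The hairpins of Mir24-2, Mir26a-1, Mir26a-2 and Mir146 hold stretches of 20 bases found elsewhere too. Reads lost to multiple matches would lower this sum. Mir130a had 17597 and 17814 CPM, and Mir21a, also known from fibroblasts, had 16312 and 15722 CPM. Next came Mir24-2 with 365 and 372 CPM, whose hairpin is not unique over 20 bases, and Mir31 with 129 and 157 CPM. Mir221 and Mir222, which favour growth of vascular smooth muscle cells, had 68.9 and 98.1 CPM and 25.9 and 50.1 CPM. The sum of the proliferative list was 0.414 of the smooth muscle pair in replicate 1 and 0.385 in replicate 2. For the contractile list it was 0.188 and 0.177. Reads lost to multiple matches would lower both sums. Mir130a and Mir21a made up most of the proliferative sum, and Mir22 and Mir100 most of the contractile sum. The lists are therefore not ranked against each other. Mir143 exceeded Mir130a 4.69-fold in replicate 1 and 4.96-fold in replicate 2, and Mir21a 5.05-fold and 5.62-fold. Mir145a had 0.0631 and 0.0504 of the counts of Mir130a, and 0.068 and 0.0572 of those of Mir21a. It lay above all other genes of the proliferative list. Mir143 exceeded Mir221 1197-fold in replicate 1 and 901-fold in replicate 2, and Mir145a exceeded Mir221 16.1-fold and 9.16-fold. In this list 3 genes were called higher in replicate 1 (Mir130a, Mir21a and Mir24-2) and 3 higher in replicate 2 (Mir146, Mir221 and Mir222), against 1 and 5 by total counts, where Mir130a reversed, and 3 and 2 with DESeq2 size factors, where Mir146 lost its call. Over all 413 tested genes, 21.8% were called higher in replicate 1 and 24.7% higher in replicate 2. The median log2 ratio was 0.02, and -0.16 by total counts. Mir24-1 was not analysed here.

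**Figure D5:**
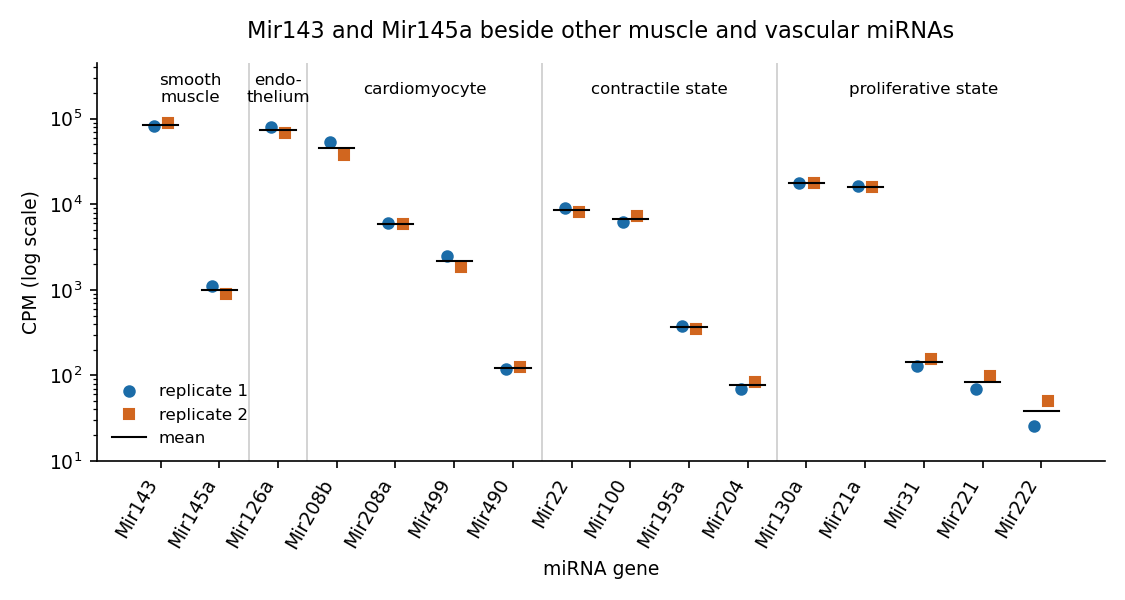
Level in CPM (log scale) of Mir143, Mir145a and genes of 4 lists that share no stretch of 20 bases with another hairpin, in replicate 1 (circles), replicate 2 (squares) and as the mean (bar). Mir143 lies above Mir126a and all others shown, and Mir145a lies between Mir499 at 2160 CPM and Mir195a at 365 CPM.

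Markers of cells from outside the heart muscle and its vessels also differed between the libraries, and their part in the differences of Mir143 and Mir145a was not tested. All 7 epithelial genes were called higher in replicate 2, against 24.7% of all 413 tested genes. These calls held by total counts, where 155 of the 413 genes were called higher in replicate 2, and with DESeq2 size factors. Among the 182 genes with at least 1000 counts summed, 142 were called in either direction. The 7 epithelial genes summed to 1821 CPM (replicate 1) and 6297 CPM (replicate 2). The smooth muscle pair exceeded this sum 45.9-fold in replicate 1 and 14.2-fold in replicate 2. The fibroblast and mesenchyme list summed to 5578 and 8924 CPM, with Mir140 and Mir214 called higher in replicate 2. Mir199b, whose hairpin is not unique over 20 bases, was called higher in replicate 1 except by total counts. Mir199a-2, also not unique over 20 bases, was called higher in replicate 2 by total counts only. The erythroid list summed to 2457 and 1095 CPM, a difference that lies in Mir451a, with 1975 and 564 CPM. The other erythroid genes had slightly higher CPM in replicate 2, with 401 and 422 CPM for Mir144 and 80.8 and 109.7 CPM for Mir486, whose hairpin is not unique over 20 bases. Of these, Mir486 was called higher in replicate 2, except with DESeq2 size factors, while Mir144 was not called after TMM scaling and was called higher in replicate 1 with DESeq2 size factors. The leukocyte list, without Mir142, which was not analysed here, summed to 480 and 702 CPM, and the skeletal muscle list to 75.6 and 104 CPM. Mir155 and Mir223 of the leukocyte list and Mir206 of the skeletal muscle list were called higher in replicate 2 under each scaling.

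Of the miRNA genes on chromosome 18, Mir143 held nearly all counts. It made up 98.4% of the counts of the 50 counted genes of that chromosome in replicate 1 and in replicate 2. Of the 50 genes 4 were detected, namely Mir143, Mir145a, Mir187 (135 and 200 CPM) and the hepatocyte miRNA Mir122 (87.2 and 309 CPM), and 36 had 0 counts in both libraries. The muscle gene Mir133a-1, on the same chromosome, had 5 and 7 counts.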

How the data were processed

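Both libraries come from separate pools of hearts and are called biological replicates in the labels. The deposited values are raw read counts per miRNA gene, whole and unnormalized. The deposited text files name mm10 and GENCODE M4. What aligned, trimmed and counted the reads is not stated in those sources. Of the 3 count columns the second was used, the strand of the gene, where counts far exceed those of the third. The first is the sum of the others in every gene. Lines that name no gene stayed out of totals. They held multiply matching reads (33.0% of reads in replicate 1 and 30.1% in replicate 2), unmapped reads (13.1% and 15.1%) and reads on no gene (5.11% and 5.07%).

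Identifiers were matched without version to GENCODE M21, on the same assembly, which named 1894 of 1973 genes. Its entries for Mir143 and Mir145a carry later versions than the files. Hairpins were read from the M21 transcripts and searched for shared stretches of 20 bases, and folded with RNAfold 2.7.2. TMM scaling used edgeR 4.0.16 (R 4.3.3), and DESeq2 1.42.0 gave size factors as an alternative. The log2 ratio between libraries added 0.5 to each count, and genes with at least 10 counts summed were tested, with a threshold of 0.05. The tests were also run on simulated counts, with and without planted changes, whose only noise was counting noise. Such counts cannot show how the tests behave with a spread between pools. Other steps used Python 3.11.15, numpy 2.4.6, pandas 2.3.3, scipy 1.17.1 and matplotlib 3.10.9. A single group allows no test of a condition, and p-values measure counting noise between these libraries. The files name no molecular identifiers, and intervals and limits cover counting error only. Genes named are the members, the 3 next above and below each in level, the 5 nearest to each, up to 4 leading members of each list where it is described, and the 5 most unequal pairs with those next to the pair. Mir221, Mir222, Mir187, Mir122 and the other genes named beyond this were chosen after their values were seen. The members and lists were chosen with earlier results of these data known. Alternatives were other scalings, denominators, count minimums, strands and distances between neighbours.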

Additional observations from a re-analysis of the deposited data

How the results depend on the processing

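The mean level of Mir143 kept within 1 SD with TMM sizes, DESeq2 size factors and detected genes alone as the denominator. It moved to 80903 CPM with counts on either strand and to 42063 per 1000000 of all reads, and Mir145a moved to 494 per 1000000 of all reads, because these denominators are larger. Without either replicate the level ran between 82454 and 88393 CPM for Mir143 and between 899 and 1110 CPM for Mir145a, and their log2 ratio between 6.22 and 6.62. The log2 ratio of Mir143 between replicates reversed to -0.10 by total counts. The number of genes called different was 192 of 413 tested, and between 180 and 203 under the other scalings, count minimums and strand. The share called moved with the count minimum. It was 180 of 687 tested genes with at least 1 count summed and 180 of 274 with at least 100. Neighbouring pairs called numbered 43, and between 30 and 49 with other distances, minimums or without shared stretches. Their share of the pairs tested was 41.0%, and between 40.7% and 52.3% in the other settings. The adjusted p of Mir143 and Mir145a ranged from 2.24e-37 to 3.06e-37 in these settings. Comparisons between libraries could not be made without either replicate. Of 32 alternatives, 28 left the result within its spread, on its side of the threshold or within 1.5 times its count. Some of these could not do otherwise. With n = 2, leaving out a replicate always stays within 1 SD of the mean. The ratio of Mir143 to Mir145a cannot change with the strand, since neither gene had counts on the opposite strand. With 1 library per pool, differences between embryos and between library preparations cannot be told apart.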

Other observations

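The hairpins of the pair differ in length, composition and predicted folding energy. The Mir143 hairpin is 63 bases long, against a median of 84 for the detected genes, and 10 detected hairpins are shorter. The Mir145a hairpin has 70 bases, and 55 detected hairpins are shorter. The share of G and C is 55.6% in Mir143 and 48.6% in Mir145a, with a median of 50.5% over detected genes. The predicted folding energy was -36.9 kcal/mol for Mir143, the same as the median of detected hairpins, and -30.3 kcal/mol for Mir145a. Whether these features bear on the counts was not tested.

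By total counts, the SD between pools was 4.92% of the mean for Mir143 and 14.9% for Mir145a, against a median of 13.8% over detected genes and 9.90% over the 50 most abundant. These shares depend on the scaling. With TMM sizes the SD was 3039 CPM around a mean of 85399 CPM for Mir143. For Mir145a it was 235 CPM around 1012 CPM. The medians over genes were not computed with TMM sizes.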
